A study of Mus musculus with 60 samples.

Results

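The first 12 h of retinoic acid (RA) in dPOLE4 MCM2-2A double mutant cells were followed in 6 of the 60 RNA-seq libraries of the series, chosen by their labels. These were the 3 libraries taken just before RA (T0) and the 3 taken 12 h into RA (T12). The cells were mouse embryonic stem cells (mESCs) of the E14JU line. Both Pole4 and Mcm2 were altered in them. The end of the Pole4 reading frame was fused to a degron (dTAG), so that POLE4, a DNA polymerase epsilon subunit that passes parental histones to the leading strand, is degraded when the dTAG ligand is added. MCM2-2A cells carry a helicase subunit whose histone-binding residues are mutated, which impairs the passing of parental histones to the lagging strand. The double mutant cultures had received dTAG (1 µM) for 24 h in medium with serum and the cytokine LIF before T0, and the medium was then replaced by one with RA and without LIF. A T12 culture therefore differed from a T0 culture in RA, in the loss of LIF and in 12 h of further culture and depletion, and these cannot be told apart. Whether dTAG stayed in the RA medium is not given in the sources used here. Comparisons were drawn with 18 libraries of the same time points from Ctrl MCM2-2A cells (the same edited line with DMSO), dPOLE4 cells (POLE4-dTAG in the wild-type background with dTAG) and Ctrl cells (that line with DMSO). All of these carry the POLE4-dTAG allele. As each background is 1 edited line, made from picked clones, a difference between backgrounds cannot be told apart from one between clones.

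RA enters the nucleus and binds retinoic acid receptors (RARs), which sit with RXR partners on short direct repeats near target genes and switch from repression to activation when RA is bound. Among the fastest targets in stem cells are genes of RA breakdown and storage, which form a negative feedback, and the 3′ genes of the Hox clusters, which give cells their position along the body axis. LIF acts in the opposite sense in mESCs, since it keeps the naive pluripotency network running through STAT3.

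Total counts were 17667985, 14183623 and 46609151 in the T0 libraries and lay between 18430055 and 28351653 at T12, so that T0 replicate 3 was the most deeply sequenced library. Repeats held 7.89% to 8.73% of the counts at T0 and 7.52% to 8.51% at T12, and mitochondrial genes held 0.986% to 2.50% at T0 and 2.03% to 3.32% at T12. Expression is given as counts per 1000000 counts of a library (CPM) after TMM scaling, and p-values measure the spread between these libraries, which the methods call biological replicates. The labelled cell type was checked against its markers. The summed level of 10 mESC markers, each detected at T0, was 5410 to 5520 CPM at T0 and 3830 to 4150 CPM at T12. The summed level of 7 fibroblast markers was 33.4 to 39.1 CPM at T0 and 20.5 to 22.2 CPM at T12. Of these 7, Dcn alone was at 0 in every T0 library. The RNA of Pole4 was 31.3 ± 2.95 CPM at T0 and 33.8 ± 2.51 CPM at T12 (SD, n = 3 each), with an adjusted p of 0.396. A degron acts on protein, so this level does not check the depletion. The RNA of Mcm2, 292 ± 21.1 CPM at T0 and 257 ± 9.66 CPM at T12 (adjusted p = 0.101), likewise does not show its mutated residues.

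Of 18284 genes and repeat subfamilies that passed the filter on low counts, together called features, 1424 changed between T0 and T12 (7.79%). A change was called in edgeR's quasi-likelihood test at a Benjamini-Hochberg adjusted p below 0.01 and a log2 fold change above 0.58 in size. At T12, 786 features were higher (4.3%) and 638 were lower (3.49%), and the median log2 fold change over all tested features was 0.00218. The counts of calls in the gene lists below are to be read beside these shares. The 12 largest increases among annotated genes were those of genes of the Hox clusters, the RA breakdown genes Cyp26a1 and Cyp26b1, and Il12b, and the largest decreases included those of the transcription factors Foxd3 and Mycn.

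RA response elements were looked for beside the start sites of the tested genes. In promoter windows from RefSeq (build GRCm38.p6, 250 bases before to 50 bases after each start), the receptor hexamer AGGTCA, the variant AGTTCA, the variant GGGTCA and the variant GGTTCA were searched on both strands, alike or mixed, as direct repeats with a spacer of 5 bases (DR5). A DR5 stood in 32 of 32851 windows (0.0974%). Among the 11737 tested genes with such a window, 7 had one, and 2 of these 7 were among the 535 genes that rose, Cyp26a1 and Rarb. Of the other 5, 1 was among the 420 genes that fell and 4 were not called. Repeats with a 2-base spacer (DR2) stood in 0.268% of all windows and in those of 3 genes that rose, 0 that fell and 11 that were not called. Repeats with a 1-base spacer (DR1) stood in 0.222% of all windows and in those of 1 gene that rose, 1 that fell and 35 that were not called. A stretch may match more than one spacing, and a match is a description of letters and not of receptor binding. The stretch before Cyp26a1 and the one around the repeat of Rarb are shown because these 2 genes head the account of RA feedback that follows. They are read 5′ to 3′ on the gene's strand, with the hexamers in capitals. The Cyp26a1 stretch lies at chr19:37697696-37697797 on the plus strand, upstream of the first annotated exon, and its repeat spans bases 32 to 16 before the RefSeq start, with the hexamers reading on the opposite strand. The Rarb stretch lies at chr14:16575507-16575535 on the minus strand, and its repeat spans bases 53 to 37 before the RefSeq start, inside an exon annotated for a longer transcript.
Cyp26a1: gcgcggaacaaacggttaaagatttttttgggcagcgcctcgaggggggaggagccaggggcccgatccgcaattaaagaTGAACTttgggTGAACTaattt
Rarb: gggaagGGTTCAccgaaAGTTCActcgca

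Of the receptors themselves, 1 of 6 tested genes passed, with a median log2 fold change of 0.288 over the 6. That gene, Rarb, passed the filter on low counts only because of its T12 counts, so this count is a description. When every library had to hold 10 counts, 0 receptor genes were called higher. Rarb, the receptor gene with its own DR5, was at 0.584, 0.431 and 0.652 CPM at T0 and at 6.86, 7.10 and 7.36 CPM at T12. The groups lay far apart, with a log2 fold change of 3.59 ± 0.19 (SE) and an adjusted p of 2.54e-07. Rara was at 66.1 ± 7.21 CPM at T0 and 95.7 ± 5.2 CPM at T12, a log2 fold change of 0.55 with an adjusted p of 5.57e-04 that stayed under the fold threshold. Without T0 replicate 1 its value was 0.63 and past it, and without T12 replicate 3 it was 0.59. Rarg was at 374 and 307 CPM (adjusted p = 0.0132).

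Among 14 tested genes of RA metabolism and transport, 6 rose and 1 fell (median log2 fold change 0.384), and 3 further genes of the list were too low to be tested. Lrat, 1 of the 6, passed the filter only because of its T12 counts and so had to be higher at T12. This count and median are therefore a description. The largest increases were those of the enzymes that break RA down. Cyp26a1, the main RA hydroxylase, was at 1.52, 1.65 and 1.76 CPM at T0 and at 86.2, 81.3 and 97.5 CPM at T12, which was a log2 fold change of 5.72 ± 0.12 (adjusted p = 3.11e-10). Its relative Cyp26b1 was at 0.876, 0.718 and 0.826 CPM at T0 and at 21.7, 24.1 and 35.0 CPM at T12 (log2 fold change 5.05 ± 0.23, adjusted p = 1.3e-07). In both genes every T12 library stood far above every T0 library, and in Cyp26b1 the third T12 library was the highest.

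Genes of retinol uptake, handling and storage rose as well. Dhrs3, which reduces retinaldehyde back to retinol, was at 3.68, 3.95 and 3.50 CPM at T0 and at 17.1, 18.8 and 17.9 CPM at T12 (log2 fold change 2.30 ± 0.11, adjusted p = 1.53e-07). Lrat, which esterifies retinol, was low throughout, at 0.193 ± 0.0607 CPM at T0 and 1.11 ± 0.291 CPM at T12 (log2 fold change 2.37 ± 0.38). Stra6, the cell surface receptor for retinol carried by RBP4, rose from 4.62, 4.24 and 4.28 CPM to 53.1, 47.9 and 55.5 CPM (log2 fold change 3.59 ± 0.10, adjusted p = 1.9e-09). The RA carrier gene Crabp2 was at 23.0, 18.5 and 18.8 CPM at T0 and 23.8, 24.1 and 22.3 CPM at T12, with overlapping groups and an adjusted p of 0.103. The 1 member that fell was Fabp5, a fatty acid carrier that can also carry RA (log2 fold change −0.71), and its call was lost without T0 replicate 2 (−0.69, adjusted p = 0.0117) or T12 replicate 2 (−0.70, adjusted p = 0.0114). Enzymes that make RA, Aldh1a2 and Aldh1a3, were at 1.52 and 1.12 CPM at T0 and 2.14 and 0.853 CPM at T12, and did not pass (adjusted p = 0.218 and 0.474).

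**Figure D1:**
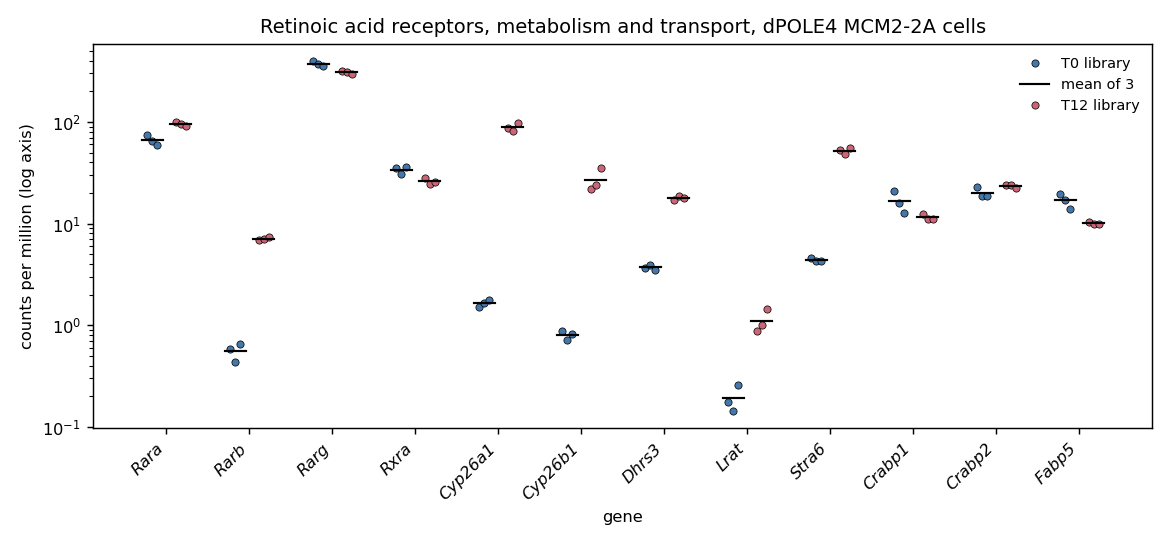
Levels of genes for RA receptors, metabolism and transport in double mutant cells, in CPM on a log axis, with a point for each T0 (blue) and T12 (red) library and a line at the mean of 3. Cyp26a1 stands at 1.52 to 1.76 at T0 and 81.3 to 97.5 at T12, whereas the groups overlap for Crabp2.

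The Hox clusters showed the largest changes of any list. Of 39 Hox genes, 24 passed the filter on low counts, and 19 of these rose and 0 fell (median log2 fold change 3.95). Several of them passed only because of their T12 counts and so had to be higher at T12, so that this count and median are a description. Within the HoxA cluster, the genes that rose included Hoxa2 to Hoxa7, Hoxa9 and Hoxa10, while Hoxa11 was at 0.365 CPM at T0 and 0.628 CPM at T12 (adjusted p = 0.0937). Within HoxB, Hoxb1 to Hoxb9 and Hoxb13 rose. The call of Hoxb13 was lost without T12 replicate 3 (log2 fold change 1.72, adjusted p = 0.0129). In HoxC and HoxD, 0 of the tested genes passed. Hoxc4 was at 0.627 CPM at T0 and 1.86 CPM at T12 (adjusted p = 0.0111) and Hoxc12 at 1.01 and 0.328 CPM (adjusted p = 0.0123), and both passed under some of the alternatives tried, such as the fit without a filter, while Hoxd13 was at 1.57 and 1.88 CPM (adjusted p = 0.549).

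Some Hox genes had reads in every T0 library. Hoxb1, which marks a single hindbrain segment, was at 0.467, 0.359 and 0.457 CPM at T0 and at 14.1, 10.4 and 12.8 CPM at T12 (log2 fold change 4.81 ± 0.20). Hoxb4 went from 0.917 ± 0.202 to 15.5 ± 0.991 CPM. Both showed a clear gap between the groups.

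Several Hox genes with large fold changes were close to silent at T0. Hoxa5 had 2, 0 and 6 counts at T0 and 313, 334 and 567 counts at T12, or 17.2, 16.1 and 19.9 CPM (log2 fold change 7.37 ± 0.27, adjusted p = 1.97e-08). Hoxa4 rose from 0.123 to 9.13 CPM and Hoxb2 from 0.181 to 9.36 CPM. Hoxb5 had 1, 0 and 1 counts at T0 and 92, 66 and 159 at T12, a ratio of CPM of 181 with an exact 95% interval of 49.7 to 1500 that covers counting error only. The lower HoxB genes and the antisense gene Hoxb3os (0.0652 to 2.16 CPM) overlap on the chromosome. The libraries were strand-specific, but whether counting used the strand is not given in the sources used here, so that reads of overlapping Hox models cannot be told apart.

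**Figure D2:**
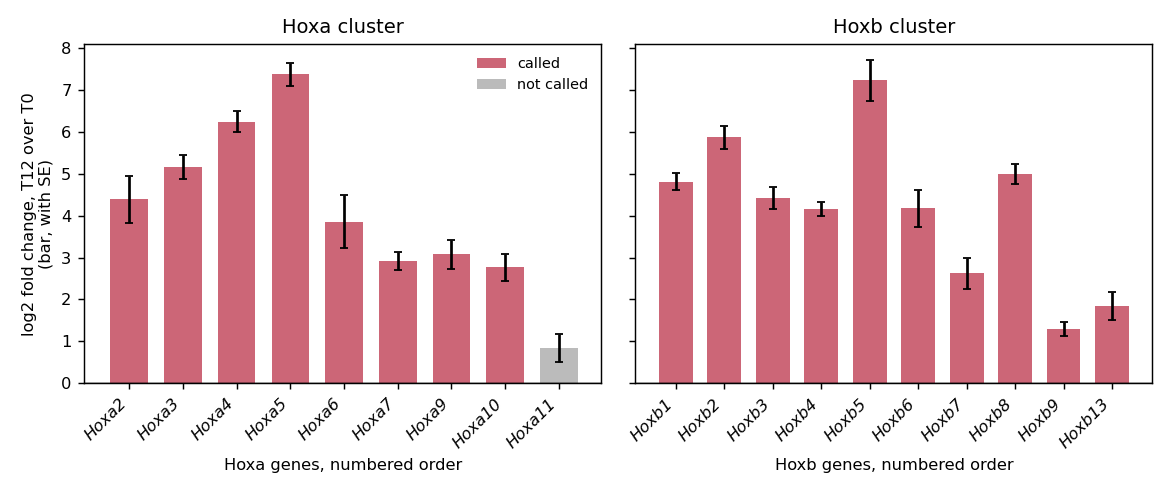
Log2 fold change of T12 over T0 (bars, with SE) of the HoxA and HoxB genes reported here, in numbered order from the 3′ end, red where called and grey where not. The bars reach 7.37 at Hoxa5 and 7.22 at Hoxb5, and Hoxa11 is the grey bar.

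Early RA-responsive transcription factors and the TALE cofactors of Hox proteins rose as well. Of 18 tested members of this list, 14 rose and 1 fell (median log2 fold change 1.48). Cdx1, which controls Hox genes in the posterior embryo, was at 4.09, 4.02 and 4.26 CPM at T0 and at 66.9, 61.7 and 61.8 CPM at T12 (log2 fold change 3.94 ± 0.09, adjusted p = 4e-10). Stra8, a germ cell gene named for its stimulation by RA, was at 35.8, 26.4 and 38.7 CPM at T0 and at 259, 241 and 258 CPM at T12 (log2 fold change 2.91 ± 0.12). The 2 genes had tight T12 groups, and Stra8 had a sizeable level before RA. Zfp703, a zinc finger corepressor, rose from 3.12 ± 0.183 to 32.4 ± 3.07 CPM (log2 fold change 3.41). Nrip1, a nuclear receptor corepressor, rose from 22.0 ± 5.46 to 103 ± 6.14 CPM (log2 fold change 2.22), and the pioneer factor Foxa1 rose from 2.62 ± 0.444 to 13.9 ± 1.82 CPM (log2 fold change 2.41).

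Among the TALE partners, Meis2 changed by a log2 fold change of 2.27, Meis1 by 1.80 and Pbx2 by 0.84. Pbx3 lay near the fold threshold at 0.62, and its call was lost on leaving out any library other than T0 replicate 3, among them T12 replicate 1 (0.58, adjusted p = 0.0352). The caudal gene Cdx2, which is also a trophoblast factor, went from 2.68 to 5.00 CPM (log2 fold change 0.90), and was not called with all 8 groups of T0 and T12 in 1 fit (adjusted p = 0.0335) or after thinning to equal depth (adjusted p = 0.0102). Tgif1, a TALE repressor of RA and TGF-beta signalling, was the member that fell, from 141 ± 3.71 to 70.02 ± 6.07 CPM (log2 fold change −1.0, adjusted p = 2.7e-06). Outside the lists, Il12b, which encodes a cytokine subunit, had 0, 0 and 1 counts at T0 and 33, 37 and 66 counts at T12, a ratio of 155 (exact 95% interval 27.4 to 6180, counting error only).

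Naive pluripotency genes fell. Of 18 tested members, 11 fell and 0 rose (median log2 fold change −0.84). Zfp42 (Rex1), a classical marker of the naive state, was at 425, 414 and 422 CPM at T0 and at 201, 215 and 198 CPM at T12 (log2 fold change −1.02 ± 0.06, adjusted p = 9.59e-07). Nanog was at 421, 429 and 476 CPM at T0 and at 251, 274 and 264 CPM at T12 (log2 fold change −0.74 ± 0.07, adjusted p = 3.32e-05). In both genes every T12 library stood below every T0 library. Prdm14, which holds back DNA methylation and differentiation, had the largest decrease of the list, from 22.4 ± 0.639 to 8.83 ± 1.15 CPM (log2 fold change −1.34). Klf4 fell from 166 to 79.2 CPM, Klf5 from 310 to 146 CPM and Esrrb from 379 to 196 CPM. Fgf4, a naive gene and the main FGF ligand of these cells, fell from 182 to 77 CPM. Klf2 and Tfcp2l1 stood at log2 fold changes of −0.50 each with adjusted p of 0.00131 and 2.44e-04, under the fold threshold, and Tbx3 was at 391 CPM at T0 and 436 CPM at T12 (adjusted p = 0.0877). The call of the germline gene Dppa3 was lost without T12 replicate 3 (−0.78, adjusted p = 0.0117).

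General pluripotency genes moved less, with 3 of 14 lower and 0 higher (median log2 fold change −0.39). Pou5f1 (Oct4) was at 1040, 942 and 809 CPM at T0 and at 685, 694 and 600 CPM at T12, without overlap, and its log2 fold change of −0.48 ± 0.09 (adjusted p = 0.00343) stayed under the fold threshold. Sox2 fell from 285 ± 17 to 163 ± 9.87 CPM (log2 fold change −0.79). The threonine dehydrogenase Tdh, a metabolic mark of mESCs, fell from 291 ± 12.1 to 115 ± 15.4 CPM (log2 fold change −1.32). The third, Utf1, lay near the fold threshold at −0.61 and passed under it without T0 replicate 2 (−0.57) or T12 replicate 3 (−0.54).

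LIF was left out of the RA medium, and 9 of 18 tested genes of the LIF and STAT3 pathway fell and 1 rose (median log2 fold change −0.59). Socs3, a direct STAT3 target that feeds back on the receptor, was at 98.3, 79.0 and 69.2 CPM at T0 and at 19.1, 18.0 and 19.2 CPM at T12 (log2 fold change −2.11 ± 0.11, adjusted p = 3.25e-07). Stat3 itself was at 117, 110 and 112 CPM at T0 and at 46.6, 47.4 and 44.1 CPM at T12 (log2 fold change −1.28 ± 0.06, adjusted p = 1.73e-07). Both genes had narrow T12 groups well below T0. The receptor gene Lifr fell from 125 ± 11.4 to 66.2 ± 2.55 CPM (log2 fold change −0.91), and Pim1, a kinase gene that STAT3 can activate, went the other way, from 154 ± 23.5 to 261 ± 8.66 CPM (log2 fold change 0.77). Among the other members that fell, Junb, Cish and Il6st lost their call on leaving out some libraries. For Junb the value without T0 replicate 1 was −0.55 against −0.74 with all libraries. Cish, at −0.78, stood at −0.64 without T12 replicate 3 (adjusted p = 0.0147), and Il6st, at −0.65, stood at −0.58 without T0 replicate 2.

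**Figure D3:**
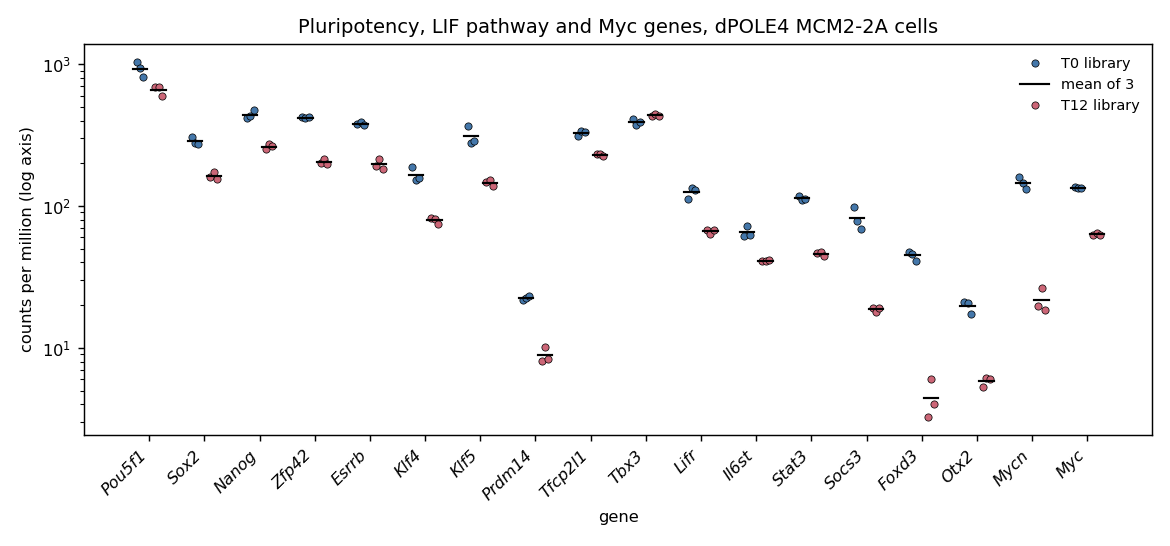
Levels of pluripotency, LIF pathway and Myc genes in double mutant cells, in CPM on a log axis, with a point for each T0 (blue) and T12 (red) library and a line at the mean of 3. Socs3, Foxd3 and Mycn show the widest gaps, Pou5f1 a narrow one, and Tbx3 stands at 391 at T0 and 436 at T12.

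Formative and primed genes, which mark the step out of the naive state, did not rise as a group. Of 17 tested members, 2 rose and 5 fell (median log2 fold change −0.37). Foxd3, a repressor that guides this exit, was at 47.6, 46.2 and 41.0 CPM at T0 and at 3.24, 6.04 and 4.03 CPM at T12 (log2 fold change −3.32 ± 0.16, adjusted p = 1.53e-07). Otx2, an early driver of the primed state and of anterior identity, was at 21, 20.8 and 17.2 CPM at T0 and at 5.32, 6.13 and 6.06 CPM at T12 (log2 fold change −1.72 ± 0.12). For both genes the highest T12 library stood below the lowest T0 library by a wide margin. The kinase gene Pim2 fell from 48.5 to 18.5 CPM. The members that rose were the de novo methyltransferase gene Dnmt3a, from 455 ± 49.4 to 699 ± 14 CPM (log2 fold change 0.63), and the early neural factor Sox3, from 4.81 ± 0.537 to 10.1 ± 0.853 CPM (log2 fold change 1.07). The call of Sox11 (−0.61) was lost without T0 replicate 1 (−0.58), T12 replicate 1 (−0.59, adjusted p = 0.0117) or T12 replicate 2 (−0.59, adjusted p = 0.0114).

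Among signalling pathways, the calls of the FGF list went down and those of the others went both ways. Of 21 FGF and ERK feedback genes, 7 fell and 0 rose (median log2 fold change −0.28), among them the ligand genes Fgf4, Fgf17 (14.2 to 4.90 CPM) and Fgf15 (8.87 to 3.68 CPM) and the feedback inhibitor gene Spry2 (151 to 71.5 CPM). Of 24 Wnt pathway genes, 3 rose and 4 fell (median −0.00231). The Wnt antagonist genes Notum and Sfrp1 fell, from 17.7 to 5.11 CPM and from 46.4 to 21.5 CPM. Of the receptor genes, Fzd5 fell from 160 to 65.9 CPM (log2 fold change −1.26) while Fzd7 rose from 81.2 to 148 CPM (log2 fold change 0.88). The ligand gene Wnt8a rose from 5.10 to 11.3 CPM. Wnt3a (log2 fold change 0.91) lost its call without T0 replicate 3 (0.74, adjusted p = 0.0117), T12 replicate 2 (0.81, adjusted p = 0.0207) or T12 replicate 3 (0.89, adjusted p = 0.0169).

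In the Nodal pathway, 3 of 15 genes rose and 2 fell (median 0.0594). Lefty1, a secreted Nodal inhibitor, was at 80.5, 80.7 and 77.7 CPM at T0 and at 165, 165 and 150 CPM at T12 (log2 fold change 1.02 ± 0.07, adjusted p = 1.1e-06), so that every T12 library stood well above T0. The Nodal coreceptor gene Tdgf1 (Cripto) fell from 626 ± 48.9 to 294 ± 20.0 CPM (log2 fold change −1.07). Nodal itself was at 116 CPM at T0 and 111 CPM at T12 (adjusted p = 0.575). Among 15 genes of the BMP pathway and its targets, Msx1 (log2 fold change 1.24), Msx2 (0.93), Id2 (0.86) and Smad6 (0.85) rose and the ligand gene Bmp4 fell (−0.73).

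Genes of later lineages gave calls in both directions. Of 20 neural progenitor and neuron genes, 12 could be tested, 1 rose and 4 fell (median log2 fold change −0.43). The neural progenitor factor Sox1 was at 2.04, 2.08 and 2.04 CPM at T0 and at 5.38, 4.73 and 5.92 CPM at T12 (log2 fold change 1.39 ± 0.16), and was the member that rose. The neuronal tubulin gene Tubb3 fell from 120 to 63.8 CPM, and Neurod1 (−0.77) lost its call without T12 replicate 1 (−0.68, adjusted p = 0.0126) or T12 replicate 2 (−0.78, adjusted p = 0.0108). Of 18 tested endoderm genes, 2 rose and 1 fell (median 0.0554). Gata6, a primitive endoderm factor that RA can raise in mESCs, was at 8.12, 9.48 and 9.87 CPM at T0 and at 26.0, 28.1 and 25.1 CPM at T12 (log2 fold change 1.52 ± 0.10). Sox17 was at 1.44 CPM at both times (adjusted p = 0.985), and the matrix gene Lama1 fell from 83.8 to 45 CPM. The summed level of 7 endoderm markers was 18.9 to 22.8 CPM at T0 and 40.9 to 44.0 CPM at T12. Of these, 5 were tested and 1 was called, Gata6, so the sum does not show a rise of the set. The summed level of 8 neural markers was 168 to 201 CPM at T0 and 109 to 121 CPM at T12, with 1 higher and 1 lower of 5 tested. The part of other cells in these values was not tested. In bulk RNA, fewer cells that express a gene and less RNA per cell cannot be told apart.

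Of 10 tested mesoderm and primitive streak genes, 2 rose and 2 fell, all at low levels, and Evx1, which fell from 1.21 to 0.279 CPM, was the 1 of these 4 that kept its call whichever library was left out. Trophoblast genes gave 1 higher (Cdx2) and 1 lower (Ascl2) of 12, and the call of Ascl2 (−0.92) was lost without T12 replicate 2 (−0.80, adjusted p = 0.0122) or T12 replicate 3 (−0.86, adjusted p = 0.0131). Genes and repeats of the 2-cell-like state gave 0 calls of 17 (median −0.12), with the retrovirus MERVL-int at 922, 758 and 1181 CPM at T0 and 811, 642 and 947 CPM at T12, where the groups overlap.

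Myc genes fell, and 1 of 42 DNA replication genes was called. Mycn was at 161, 144 and 131 CPM at T0 and at 19.8, 26.5 and 18.6 CPM at T12 (log2 fold change −2.74 ± 0.12, adjusted p = 1.1e-07), and Myc was at 137, 134 and 133 CPM at T0 and at 62.5, 64.6 and 62.0 CPM at T12 (log2 fold change −1.09 ± 0.06, adjusted p = 3.84e-07). In both genes the libraries of a time point lay close together. The cyclin gene Ccnd1 fell from 133 to 84.1 CPM and was the third and last of 18 genes of this list to be called. Over the replication genes the median was −0.0762, and the 1 that rose was Rpa1, a single-strand binding protein gene, from 441 ± 9.36 to 683 ± 8.53 CPM. Replacement histones and histone chaperones gave 1 call of 23 (4.35%, median −0.0536), the linker histone gene H1f0 (log2 fold change 0.76). Of 20 p53 targets, 1 was called (5%), Sesn1 (0.62), which stood at 0.57 and under the fold threshold without T0 replicate 2. The shares of the chaperone and p53 lists lay near the 4.3% of all tested features that were higher.

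The enzymes of DNA methylation moved apart. Dnmt3l, the cofactor of de novo methylation, fell from 350 ± 28.6 to 164 ± 4.69 CPM (log2 fold change −1.08 ± 0.07), Dnmt3b fell from 335 to 178 CPM and Tet1, a demethylation enzyme, fell from 613 to 354 CPM, while Dnmt3a rose. These were the 4 calls among 12 genes (median −0.13). Polycomb genes gave 3 higher and 2 lower of 28 (median 0.0126). Epop, which tunes Polycomb repressive complex 2 at active promoters, fell from 419 to 241 CPM, Phf19 fell from 39.3 to 23.1 CPM and Yaf2 rose from 5.33 to 11 CPM. The increases of Bmi1 (log2 fold change 0.72) and Cbx8 (0.94) were each lost without any of 3 libraries in turn. For Bmi1 these were T0 replicate 2 (adjusted p = 0.0203), T12 replicate 2 and T12 replicate 3, and for Cbx8 T0 replicate 2, T12 replicate 1 and T12 replicate 2 (adjusted p = 0.0145).

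Among the 12 largest decreases of annotated genes, Ly6g6e was at 8.88, 8.40 and 6.29 CPM at T0 and at 0.714, 0.966 and 0.526 CPM at T12 (log2 fold change −3.40 ± 0.23, adjusted p = 1.9e-06). Also among these 12, the keratin genes Krt13, Krt17 and Krt16 fell from 1.70, 12 and 1.94 CPM to 0.268, 2.54 and 0.418 CPM. The kinase gene Sgk1 fell from 111 ± 9.93 to 25.0 ± 2.73 CPM (log2 fold change −2.13 ± 0.10), and its 3 T12 libraries lay between 21.8 and 26.7 CPM. From a list of keratins, cadherins and matrix genes, Vim fell from 124 to 61.0 CPM and the integrin gene Itga3 rose from 154 to 252 CPM, 2 of 4 calls among 22 members (median −0.23).

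Repeats changed little as classes. Of 516 tested LTR subfamilies 7 rose and 12 fell (median log2 fold change −0.15), of 136 LINE subfamilies 0 rose and 1 fell (median −0.0809), and of 216 others 0 rose and 1 fell (median −0.052), which was below the 7.79% of all features in each class. The count of LTR subfamilies that fell dropped to 3 without T0 replicate 2 and was 4 or 6 without any of the 3 T12 libraries in turn. The LINE call was lost without T0 replicate 2, T0 replicate 3 or any of the 3 T12 libraries in turn. The call among the others was lost without T0 replicate 2 or any of the 3 T12 libraries. The internal sequences RLTR6-int and MMVL30-int, of a retrovirus and of VL30 elements, rose from 34.5 ± 3.69 to 66.9 ± 9.31 CPM and from 21 ± 1.28 to 39.9 ± 6.20 CPM (log2 fold change 0.96 and 0.93). BGLII, an LTR, had the largest decrease among called subfamilies, from 68.1, 45.7 and 41.3 CPM to 23.4, 20.1 and 20.7 CPM (log2 fold change −1.25 ± 0.16), with T0 replicate 1 well above the other 2. Reads of near-identical copies were shared out by the authors' counting, so that a subfamily's value is not that of single copies.

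Replication-dependent histone genes gave 4 higher (5.97%) and 0 lower of 67 (median log2 fold change 0.30). Mitochondrial genes gave 1 higher of 27 (3.7%, median 0.49), the ribosomal RNA gene mt-Rnr1 (log2 fold change 1.25). These shares lay near the 4.3% of all tested features that were higher. Both counts moved to 14 without T0 replicate 3, the deepest library and the one with the highest mitochondrial share at T0. The histone count fell to 2 without T0 replicate 2, T12 replicate 1 or T12 replicate 3. The mitochondrial count was 0 in DESeq2 and without T12 replicate 1 or T12 replicate 3, and mt-Rnr1 also lost its call without T0 replicate 2 (adjusted p = 0.0284). Among genes of hypoxia and glycolysis, 2 rose and 3 fell of 26 (median −0.11). Vegfa, the vascular growth factor, rose from 35.8 to 58.7 CPM and Ndrg1 fell from 20.0 to 10.1 CPM. The other 3 calls of that list were lost more widely. The call of Aldoc was lost without any of the 6 libraries in turn (adjusted p up to 0.0411 without T12 replicate 3) and in DESeq2 (adjusted p = 0.0122). That of Bnip3 was lost without T0 replicate 1, T0 replicate 2, T12 replicate 1 or T12 replicate 3 (0.43 there), and that of Pfkp, near the fold threshold, without T0 replicate 1, T12 replicate 2 or T12 replicate 3 (−0.58 there).

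**Figure D4:**
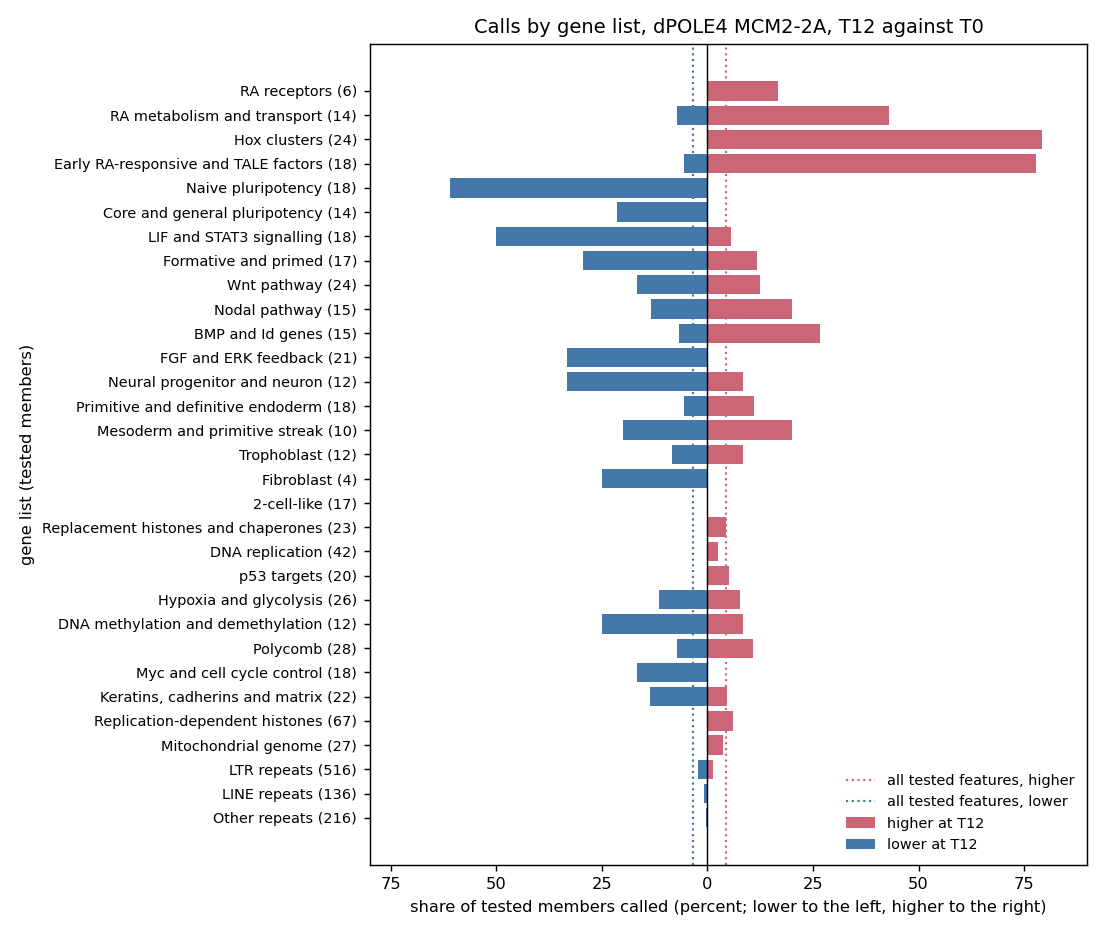
Share of the tested members of each list that were called higher (red, to the right) or lower (blue, to the left) at T12, in percent, with the number of tested members in brackets and dotted lines at the share over all tested features. Hox genes reach 79.2% higher and naive pluripotency genes 61.1% lower, against 4.3% and 3.49% of all features. Several Hox genes, and Rarb and Lrat of the RA lists, passed the filter only because of their T12 counts. The shares of these lists are therefore a description.

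The early response of the double mutant was then set beside that of the other 3 cell states. In the same test on each state's own 6 libraries, 1545 of 17856 features changed in Ctrl MCM2-2A cells (8.65%), 2126 of 18176 in dPOLE4 cells (11.7%) and 1993 of 17673 in Ctrl cells (11.3%), against 7.79% in the double mutant. The shares that rose and fell were 5.2% and 3.45% in Ctrl MCM2-2A, 7.18% and 4.52% in dPOLE4 and 7.24% and 4.04% in Ctrl. The log2 fold changes of the double mutant correlated across 16939 features with those of Ctrl MCM2-2A (Pearson's r = 0.875), dPOLE4 (0.849) and Ctrl (0.789). These correlations are across genes, which are not independent replicates, and come from separate libraries. Over the 1240 features that rose in Ctrl, the median log2 fold change was 1.06 in Ctrl, 0.936 in dPOLE4, 0.756 in Ctrl MCM2-2A and 0.653 in the double mutant, and 45.4% of them were called higher in the double mutant, where they made up 75% of the 751 features called higher among those tested in every state. Over the 675 that fell in Ctrl, the medians were −0.93, −0.88, −0.80 and −0.77. Because these features were chosen on their Ctrl values, smaller medians elsewhere follow in part from the choice. The Hox medians were 5.21 in Ctrl, 4.68 in dPOLE4, 4.72 in Ctrl MCM2-2A and 3.95 in the double mutant. Each was taken over the Hox genes tested both in the double mutant and in that state, so the sets can differ. Several Hox genes passed the filter only because of their T12 counts, so these medians are a description. Over the naive genes the medians were −0.90, −0.86, −1.04 and −0.84.

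The difference of the 12 h change was tested in 1 fit for each pair of states. Against Ctrl MCM2-2A, the state that differs by dTAG alone, 0 of 18842 features passed in edgeR and 0 in DESeq2, with 737 and 510 at an unadjusted p below 0.05. The lowest adjusted p was 0.997 in edgeR and 0.0429 in DESeq2. At 3 libraries a group, a count of 0 does not show that the changes were equal. Against dPOLE4, 37 of 19383 features differed (0.191%), 5 with a higher (0.0258%) and 32 with a lower change (0.165%) in the double mutant. Against Ctrl, 94 of 18912 differed (0.497%), 10 higher (0.0529%) and 84 lower (0.444%). The 3 tests share the double mutant libraries. Of the 84 features, 80 rose in Ctrl, 39 of them in the double mutant as well. A double mutant and a Ctrl or dPOLE4 culture differ in the edited line too, and the background, the clone and, against Ctrl, the dTAG treatment cannot be told apart. As 0 features passed against Ctrl MCM2-2A, the differences given below are not shown to be particular to the double mutant.

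The lower changes came with higher levels before RA. In 82 of the 84 features the T0 mean was higher in the double mutant than in Ctrl, while the T12 mean was lower in 40 of them, and the median ratio of the double mutant to Ctrl was 2.26 at T0 and 1.01 at T12. Against dPOLE4, the T0 mean was higher in 28 of the 32 features and the T12 mean was lower in 18 of them, with median ratios of 2.31 and 0.974. These levels are the values the tests were made of and are given as a description. Conversely, 9 of the 10 features with a higher change than in Ctrl, and all 5 of those against dPOLE4, had a lower T0 mean in the double mutant.

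Among RA genes, Dhrs3 showed both a higher start and a lower end. Its T0 libraries were at 0.963, 1.65 and 2.17 CPM in Ctrl against 3.68, 3.95 and 3.50 CPM in the double mutant, and its T12 libraries were at 32.1, 35.7 and 33.3 CPM against 17.1, 18.8 and 17.9 CPM. The groups did not overlap at either time. Its 12 h change was lower by a log2 difference of −2.06 ± 0.22 than in Ctrl (adjusted p = 1.29e-04) and of −1.95 ± 0.23 than in dPOLE4 (adjusted p = 6.45e-04), and both calls held whichever library was left out. In Ctrl MCM2-2A, Dhrs3 went from 4.25 ± 0.150 to 21.7 ± 1.65 CPM.

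Stra8 and Stra6 started higher but did not end lower. Stra8 was at 7.65, 11.6 and 15.6 CPM at T0 in Ctrl and at 35.8, 26.4 and 38.7 CPM in the double mutant, and at T12 its means were 251 and 253 CPM. Every T0 library of the double mutant was above those of Ctrl, whereas the T12 groups overlapped. The difference of its 12 h change was −1.51 against Ctrl (adjusted p = 0.00232), and it was lost without Ctrl T0 replicate 2 (−1.50, adjusted p = 0.0114). Stra6 went from 0.857 to 31.3 CPM in Ctrl and from 4.38 to 52.2 CPM in the double mutant, so that both ends were higher and the difference was −1.58 (adjusted p = 0.00153). Its call was lost without Ctrl T0 replicate 3 (−1.53, adjusted p = 0.0104). Crabp2 rose in Ctrl from 8.13 ± 0.501 to 21.2 ± 2.90 CPM, whereas in the double mutant it was at 20.1 ± 2.52 CPM before RA and 23.4 ± 0.978 CPM after, a difference of −1.13 (adjusted p = 0.00121).

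Rarb ended lower in the double mutant than in dPOLE4, and its 12 h change was called different from that in dPOLE4 but not from that in Ctrl. Its T12 libraries were at 12, 13.3 and 14.1 CPM in dPOLE4 and at 6.86, 7.10 and 7.36 CPM in the double mutant, with T0 means of 0.271 and 0.556 CPM. The difference of −1.98 against dPOLE4 had an adjusted p of 0.00589 and was not called without any of 10 of the 12 libraries in turn, with adjusted p up to 0.0623 without T0 replicate 3 of the double mutant, nor with all 8 groups in 1 fit (adjusted p = 0.016). Cyp26a1 was at 190 ± 24.8 CPM at T12 in Ctrl, 156 ± 6.70 CPM in dPOLE4, 136 ± 20.1 CPM in Ctrl MCM2-2A and 88.3 ± 8.30 CPM in the double mutant, but its T0 means were 3.20, 3.05, 1.03 and 1.64 CPM in the same order and its 12 h change was not called different in any test. Hoxb1, at 23.5, 16.3, 20.8 and 12.4 CPM at T12 in that order, likewise was not called.

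Sox3 and Lefty1, both induced in the double mutant, rose further in Ctrl. Sox3 reached 21, 23.5 and 20.1 CPM at T12 in Ctrl and 9.17, 10.9 and 10.1 CPM in the double mutant from T0 means of 3.76 and 4.81 CPM. The 2 groups of T12 libraries stood apart by a wide gap, and the difference of −1.43 (adjusted p = 2.62e-04) held whichever library was left out. Lefty1 reached 151 ± 34.8 CPM in Ctrl and 160 ± 8.69 CPM in the double mutant, from 30.4 ± 7.10 and 79.6 ± 1.68 CPM, and its difference of −1.28 (adjusted p = 0.00344) was not called without any of 6 libraries in turn, among them T0 replicate 1 of Ctrl (−1.18, adjusted p = 0.0145). From the lists, 3 of 15 tested RA metabolism genes, 2 of 26 hypoxia and glycolysis genes and 2 of 18 Myc and cell cycle genes differed from Ctrl in their change, each with a lower change in the double mutant, beside 0.497% of all features. Of the other lists, 7 gave 1 such gene each and the rest gave 0. Of the 2 hypoxia and glycolysis genes, 1 was Aldoc. Its difference was not called without Ctrl T0 replicate 1, Ctrl T12 replicate 1, or T12 replicate 1 or 3 of the double mutant (adjusted p up to 0.0117).

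**Figure D5:**
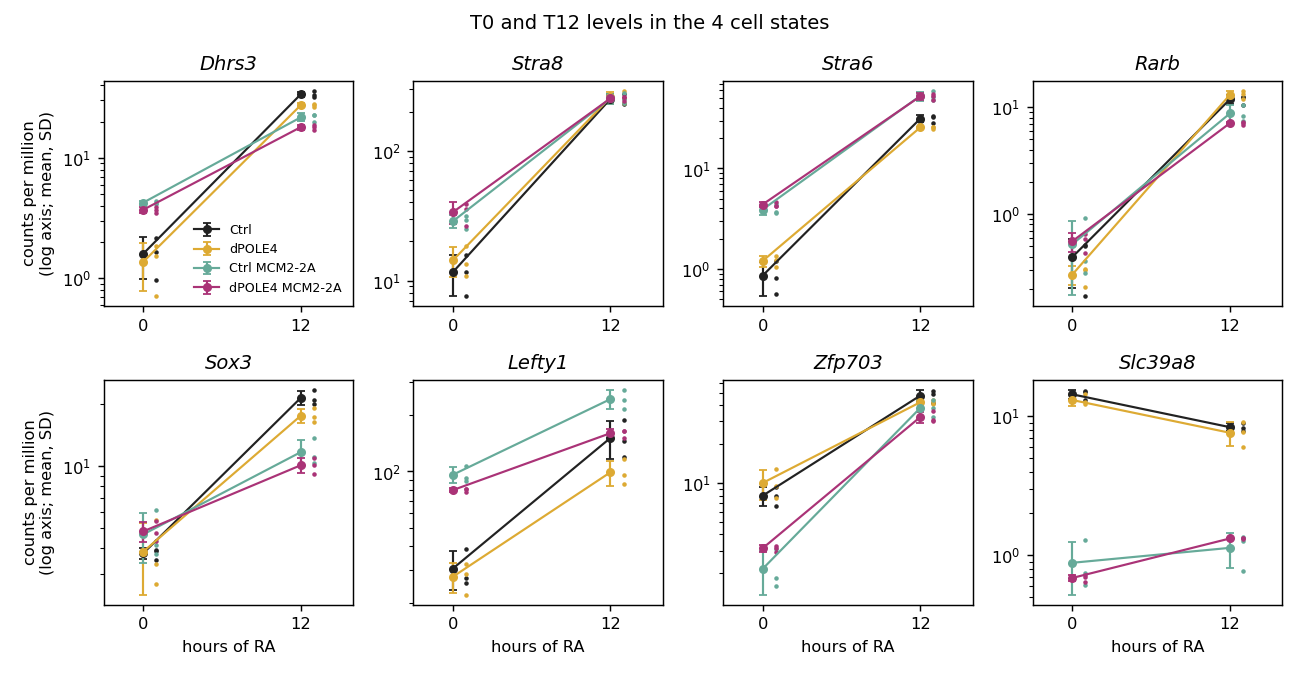
Levels of 8 genes at 0 and 12 h of RA in the 4 cell states, in CPM on log axes, as means with SD and a small point beside each mean for every library (n = 3 per group). Dhrs3, Stra8 and Stra6 start higher in both MCM2-2A states, and Sox3 at 12 h is at 21.5 in Ctrl and 10.1 in the double mutant.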

How the data were processed

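RNA of the 6 double mutant libraries and of 18 libraries from the other cell states was compared at T0 and T12. Per the methods and labels, total RNA was depleted of rRNA, made into strand-specific libraries and sequenced as paired ends, reads were trimmed with cutadapt 4.2 and aligned with STAR to mm10, keeping multiple alignments, and TEcount assigned them to GENCODE genes and repeat subfamilies. The authors deposited these counts unnormalized, and columns without a sample label numbered 0. Symbols, positions and exons came from a GENCODE annotation of the same build, and promoter windows from RefSeq. A table of 96 h samples was not used, and the values of some genes are not reported here. Samples were grouped by title. The treatment text of the labels names other RA times, and T12 is taken from the time label.

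The software used here was edgeR 4.0.16 under R 4.3.3, beside DESeq2 1.42.0 and limma 3.58.1. In each state's 6 libraries, filterByExpr at a count of 10 and a total of 15 removed low features, and the rest were scaled by TMM and tested by the quasi-likelihood F test with Benjamini-Hochberg adjustment over all features. Differences of the 12 h change were interaction terms of 12 libraries. The study's methods name DESeq2, which was an alternative here, and its thresholds were kept. The procedure was tested on simulated data.

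The libraries and lists were chosen with earlier results of these data known. Named were Pole4, Mcm2, members of the lists, and the 12 called genes with the largest fold change in each direction among annotated genes with at least 1 CPM in the higher group and no overlap between groups (680 higher and 548 lower met these conditions). The 5 largest repeats in each direction and the 5 largest differences in each direction of each interaction test were added. Depth limits low genes: genes with 3 or fewer counts in a group are given as counts with an exact 95% interval. Alternatives were other scalings, filters, fits, call rules, thinning to 14183623 counts and leaving out each library.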

Additional observations from a re-analysis of the deposited data

Results flagged for a closer look

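The 12 h change differed between the double mutant and Ctrl in 94 features and between the double mutant and dPOLE4 in 37, by the interaction term of edgeR's quasi-likelihood test. The genes with the largest differences in each direction are given here as log2 differences, double mutant minus the other state, with the levels behind them. Most of these genes also had different T0 means in the compared lines, and the part of the clone in the differences was not tested. Against Ctrl MCM2-2A 0 features passed, so these differences are not shown to be particular to the double mutant. That count does not show that the 2 states responded alike.

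Against Ctrl, the 5 lowest differences were those of Ndnf, Themis2, Zbtb7c, Dhrs3 and Oprd1. Zbtb7c, a zinc finger gene, was at 13.8 CPM at T0 and 29.2 CPM at T12 in the double mutant and at 2.48 and 23.7 CPM in Ctrl, a difference of −2.14 ± 0.15 (SE) with an adjusted p of 3.74e-06. It started far higher in the double mutant and ended slightly higher. Themis2 went from 3.49 to 18.0 CPM in the double mutant and from 0.937 to 24.6 CPM in Ctrl (−2.30), Dhrs3 differed by −2.06, and the opioid receptor gene Oprd1 went from 1.72 to 4.60 CPM against 0.459 to 5.24 CPM (−2.04). These 4 calls held whichever library was left out. Ndnf rose from 0.23 to 2.11 CPM in Ctrl and stood at 0.577 and 0.483 CPM in the double mutant, a difference of −3.25 whose call was lost on leaving out any of 6 libraries in turn, with adjusted p up to 0.0155 without Ctrl T0 replicate 2. DESeq2 gave Ndnf no adjusted p.

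The 5 highest differences against Ctrl were those of Gabrp, Apln, Slc39a8, Edn1 and Mitf. Gabrp, a GABA receptor subunit gene, was at 0.805 and 0.813 CPM at T0 in the double mutant and Ctrl and at 9.01 and 1.69 CPM at T12, so that the 2 states began at similar means and the double mutant ended higher. Its difference of 2.42 lost its call without Ctrl T0 replicate 3 (2.28, adjusted p = 0.0126). The other 4 began lower in the double mutant. The metal transporter gene Slc39a8 was at 0.686 and 1.32 CPM against 14.4 and 8.35 CPM (1.74), and Mitf, a pigment cell factor, at 10.1 and 6.81 CPM against 17.1 and 4.92 CPM (1.25), and both held without any single library. Apln, an apelin peptide gene at 0.316 and 0.469 CPM in the double mutant against 6.97 and 1.95 CPM, differed by 2.36 and lost its call without any of 4 libraries in turn, at most 0.0317 without T12 replicate 3 of the double mutant. Edn1, the endothelin gene, at 1.83 and 6.94 CPM against 6.97 and 9.65 CPM, differed by 1.34 and lost its call without any of 10 libraries, with adjusted p up to 0.0246 without Ctrl T0 replicate 1.

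Against dPOLE4, the 5 lowest differences were those of Rarb (−1.98), Phactr3 (−1.98), Dhrs3 (−1.95), Chrna5 (−1.80) and Themis2 (−1.61), and the 5 highest were those of Apln (2.62), Slc39a8 (1.75), Zfp703 (1.33), Gjb5 (1.11) and Mitf (1.02). Phactr3 ended at 4.89 CPM in the double mutant and 4.84 CPM in dPOLE4 from 4.13 and 0.989 CPM. Zfp703 ended at 32.4 and 42.2 CPM from 3.12 and 10.0 CPM, a larger rise in the double mutant from a lower start. Gjb5, a gap junction gene, fell in both states, from 15.5 to 5.81 CPM in the double mutant and from 24.8 to 4.30 CPM in dPOLE4. Of these 10 calls, those of Dhrs3 and Gjb5 held whichever library was left out. Rarb, Phactr3, Chrna5 and Zfp703 were not called different from Ctrl. Phactr3 lost its call without dPOLE4 T0 replicate 3, T12 replicate 2 or T12 replicate 3 or T0 replicate 2 of the double mutant (adjusted p up to 0.0142). Rarb, Apln and Slc39a8 lost theirs without any of 10 libraries in turn, Themis2 without any of 11, Chrna5 of 9, Zfp703 of 7 and Mitf of all 12. Apln reached an adjusted p of 0.0453, Slc39a8 0.0293 and Mitf 0.0337 without T12 replicate 3 of the double mutant, Chrna5 0.0266 and Themis2 0.027 without dPOLE4 T0 replicate 2, and Zfp703 0.0185 without dPOLE4 T12 replicate 2.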

How the results depend on the processing

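Of the 1424 features called at 12 h, 1348 were also called by DESeq2, and the count lay between 1029 (without T12 replicate 3) and 1595 (without T0 replicate 3) on leaving out a library. It moved to 439 when edgeR tested against a 1.5-fold change and to 2279 without a fold threshold. The count of differences from Ctrl MCM2-2A, 0, became 27 without a filter and stayed 0 in the other alternatives run. The 37 differences from dPOLE4 became 116 in DESeq2, 174 without a filter and 62 with all 8 groups in 1 fit, and lay between 11 (without dPOLE4 T12 replicate 2) and 32 on leaving out a library. The 94 from Ctrl became 202, 373 and 149, and lay between 58 (without Ctrl T0 replicate 1) and 117. The cause of these shifts was not tested, apart from the looser or stricter rule where the threshold or filter itself changed. Groups shared replicate numbers, but same-numbered deviations correlated at 0.053 to 0.404, with 2 of 3 above 0.1, and nothing in the labels pairs them. With the number as a block, the counts were 1640 for the 12 h change (1416 shared), 0, 59 and 147 for the differences. The 19 Hox genes called became 4 when every library had to hold 10 counts. Among 204 genes and repeats the direction reversed in 1, the uncalled Sox17. Its log2 fold change lay between −0.26 (without T12 replicate 2) and 0.15 (without T0 replicate 1). For genes named in the text, calls lost on leaving out a library are given beside them. Other genes and repeats counted in the lists also lost calls in this way. After thinning each library to the lowest total, Wnt3a, Cdx2, Pbx3, Sox11 and Aldoc were not called, and some genes and repeats not named here also lost their calls. With all 8 groups in 1 fit, neither Cdx2 nor mt-Rnr1 nor the differences of Rarb and Edn1 were called, and with all 4 time points in the fit Bnip3 was not. DESeq2 did not call mt-Rnr1, Aldoc or some features not named here. The robust form of edgeR's quasi-likelihood test did not call mt-Rnr1 either (adjusted p = 0.0813). At 3 libraries a group and 14183623 counts in the shallowest, changes of genes near 0 at T0 carry wide intervals.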

Other observations

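Some gene families and 1 locus were counted besides the lists, and those given here were picked after their values were seen, so that their counts are a description. In the imprinted Dlk1-Dio3 locus on chromosome 12, whose maternal copy makes a long series of noncoding RNAs, 0 of 26 tested gene models rose and 16 fell (median log2 fold change −1.51, against 0.00218 over all tested features). Meg3, the first of these RNAs, was at 226, 191 and 187 CPM at T0 and at 70.4, 61.0 and 61.6 CPM at T12 (−1.63 ± 0.09, SE, adjusted p = 2.95e-07 in edgeR). Every T12 library stood below every T0 library by a wide margin. Rian fell from 287 to 104 CPM (−1.45) and Mirg from 61.0 to 20.8 CPM (−1.53). The small RNA models of the locus lie inside these host RNAs, and reads of a model and its host cannot be told apart. The paternally expressed Dlk1 was at 11.9 CPM at T0 and 16.3 CPM at T12 and was not called (adjusted p = 0.0203), and Dio3 (−0.96) lost its call without T0 replicate 1, T12 replicate 1, T12 replicate 2 or T12 replicate 3, with adjusted p up to 0.0389.

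MHC class I genes, which present peptides at the cell surface, gave 6 higher and 0 lower of 10 tested protein-coding members (median 0.824). H2-Q2 was at 0.584, 0.646 and 1.02 CPM at T0 and at 5.87, 5.51 and 5.61 CPM at T12 (2.78 ± 0.21), H2-Q7 rose from 3.59 to 11.2 CPM (1.63) and the classical H2-K1 from 29.3 to 51.7 CPM (0.84). Near-identical copies in this family share reads, so that single members are uncertain. Among the connexin genes of the Gjb family, 1 of 5 rose and 3 fell. Gjb5 fell from 15.5 to 5.81 CPM (−1.42), while Gjb1 rose from 1.72 to 4.78 CPM (1.56). Of 20 tested keratin genes 1 rose, Krt20 (1.37 to 6.81 CPM, 2.31), and 5 fell, among them Krt42 (38.6 to 14.8 CPM, −1.36). Platr transcripts, noncoding RNAs named for their link to pluripotency, gave 0 higher and 7 lower of 23 (median −0.33).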
